A study of Mus musculus with 12 samples.

Results

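Open chromatin away from genes often comes in groups of neighbouring sites. The peaks described here are such groups in murine ER-Hoxa9 Lys-GFP cells kept in estradiol (E2): 618 distal peaks in 184 clusters, out of 6500 distal peaks and 13165 peaks in that list and 16028 regions in the union of all 6 lists. They were chosen by position in the continuous-E2 list alone. A distal peak has its midpoint more than 1000 bases from the start and end of every protein-coding gene of GRCm38, and a cluster is a chain of 3 or more distal peaks with gaps of 25 kb or less. Number, span and gap of the clusters are therefore set by this choice and carry no test, while calls in the other 5 lists played no part in it. Positions are given as GRCm38, which gene boundaries fit, although the submitters' processing notes name mm9.

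The cells are C57BL/6 myeloid progenitors in which Hoxa9, a homeobox factor that blocks differentiation, is fused to the hormone-binding part of the estrogen receptor, so that E2 keeps the block on. A GFP reporter of lysozyme marks maturing cells. All groups carried both constructs and grew in vitro in serum medium with stem cell factor, and open chromatin was mapped by ATAC-seq, in which a transposase cuts accessible DNA. The groups were continuous E2, 24, 40, 56 or 72 h without E2 followed by 96, 80, 64 or 48 h of E2 add-back, and 120 h without E2. Each group had 2 libraries and 1 deposited peak list, so nothing can be said about spread between libraries, and withdrawal and add-back times change together. Words such as later and up to refer below to the order of withdrawal times, not to successive times of the same cells. Per the labels' protocol, nuclei of 1 preparation were divided between 2 transposition reactions, and whether the libraries of a group came from separate cultures is not stated. The study asked when commitment to myeloid differentiation becomes irreversible, and here the question is which clustered sites of the E2 state were still called once the hormone had been removed.

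Distal accessible sites include enhancers, insulators and promoters of non-coding or alternative transcripts. Several enhancers in a row can serve 1 gene, and in blood cells such rows are known at genes of lineage factors and growth factor receptors. Accessibility alone does not tell an enhancer from another kind of open site, and the lists hold neither histone marks nor peak scores.

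A minority of clustered peaks can be shown as sequence, because 75 of the 618 overlapped a RefSeq window of 300 bases around an annotated transcript start, of which 52 belong to protein-coding genes, at a start other than the outermost boundary used to define distal peaks, and 23 to long non-coding RNA genes. The word distal therefore does not hold for these peaks in the sense of lying away from every transcript start. They matter because they were called at 120 h more often than the other clustered peaks, as given further down. Shown first are the windows, in GRCm38.p6 and read 5′ to 3′ along the gene, of the 4 widest clustered peaks (one chromosome left aside) that hold such a window whole and were called in all 6 lists. Capitals mark CpG dinucleotides, counted in the paragraph after the windows.
Zbtb11, chr16:55973554-55973853, plus strand: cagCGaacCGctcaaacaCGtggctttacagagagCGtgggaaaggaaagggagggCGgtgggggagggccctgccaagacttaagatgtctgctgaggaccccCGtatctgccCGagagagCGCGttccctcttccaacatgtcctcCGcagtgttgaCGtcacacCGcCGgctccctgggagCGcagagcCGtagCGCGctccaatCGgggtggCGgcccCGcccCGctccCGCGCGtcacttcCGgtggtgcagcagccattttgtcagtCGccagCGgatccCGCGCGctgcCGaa
Chst11, chr10:82985247-82985546, plus strand: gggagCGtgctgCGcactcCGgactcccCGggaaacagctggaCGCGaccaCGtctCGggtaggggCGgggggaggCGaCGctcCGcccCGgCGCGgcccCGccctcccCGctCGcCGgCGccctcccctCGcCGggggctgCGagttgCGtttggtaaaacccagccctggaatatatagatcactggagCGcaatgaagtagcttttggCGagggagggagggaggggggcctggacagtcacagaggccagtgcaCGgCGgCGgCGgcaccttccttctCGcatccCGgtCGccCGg
Atp5d, chr10:80142025-80142324, plus strand: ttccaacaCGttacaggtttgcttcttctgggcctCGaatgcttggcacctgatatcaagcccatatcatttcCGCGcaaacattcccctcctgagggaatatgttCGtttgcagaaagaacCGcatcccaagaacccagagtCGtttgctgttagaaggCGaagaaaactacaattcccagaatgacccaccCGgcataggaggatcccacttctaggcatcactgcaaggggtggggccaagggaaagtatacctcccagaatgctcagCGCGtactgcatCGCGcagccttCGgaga
Smim14, chr5:65492662-65492961, minus strand: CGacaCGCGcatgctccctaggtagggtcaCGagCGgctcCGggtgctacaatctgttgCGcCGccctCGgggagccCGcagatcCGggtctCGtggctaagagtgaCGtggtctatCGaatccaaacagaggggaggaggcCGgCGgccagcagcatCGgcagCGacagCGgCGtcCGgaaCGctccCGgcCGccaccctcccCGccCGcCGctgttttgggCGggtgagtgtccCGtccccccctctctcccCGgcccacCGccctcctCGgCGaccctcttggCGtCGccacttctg

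The next 4 windows were chosen in the same way among clustered peaks called in continuous E2 and in no other list.
Hivep2, chr10:13966129-13966428, plus strand: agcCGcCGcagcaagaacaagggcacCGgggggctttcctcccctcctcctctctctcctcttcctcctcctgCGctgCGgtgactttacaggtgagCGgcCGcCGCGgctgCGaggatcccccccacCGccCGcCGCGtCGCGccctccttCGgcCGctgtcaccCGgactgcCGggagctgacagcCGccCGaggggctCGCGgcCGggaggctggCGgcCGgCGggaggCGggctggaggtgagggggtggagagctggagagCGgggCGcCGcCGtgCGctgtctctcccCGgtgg
Wipf1, chr2:73485704-73486003, minus strand: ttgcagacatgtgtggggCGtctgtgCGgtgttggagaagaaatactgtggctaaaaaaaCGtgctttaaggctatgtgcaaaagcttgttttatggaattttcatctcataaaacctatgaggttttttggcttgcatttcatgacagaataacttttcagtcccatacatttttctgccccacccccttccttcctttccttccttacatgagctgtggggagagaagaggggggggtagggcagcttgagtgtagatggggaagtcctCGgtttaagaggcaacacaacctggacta
Srpk2, chr5:23616522-23616821, minus strand: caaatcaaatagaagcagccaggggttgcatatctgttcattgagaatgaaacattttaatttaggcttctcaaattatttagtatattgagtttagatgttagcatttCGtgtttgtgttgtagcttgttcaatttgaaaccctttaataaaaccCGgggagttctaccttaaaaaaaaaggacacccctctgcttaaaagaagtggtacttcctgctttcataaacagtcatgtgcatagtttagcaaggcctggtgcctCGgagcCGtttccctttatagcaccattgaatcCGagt
Gm39019, chr7:58730976-58731275, minus strand: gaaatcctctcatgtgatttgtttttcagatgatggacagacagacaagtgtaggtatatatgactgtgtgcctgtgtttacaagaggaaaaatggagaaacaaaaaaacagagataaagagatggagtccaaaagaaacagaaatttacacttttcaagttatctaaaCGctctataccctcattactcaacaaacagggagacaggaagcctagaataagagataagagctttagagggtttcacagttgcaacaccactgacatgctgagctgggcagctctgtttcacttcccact

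The first 4 windows hold 31, 34, 14 and 35 CpG dinucleotides, in the order Zbtb11, Chst11, Atp5d and Smim14. Zbtb11 encodes a zinc finger transcription factor, Chst11 a chondroitin sulfotransferase, Atp5d a subunit of the mitochondrial ATP synthase and Smim14 a small membrane protein. Of the second 4, that of Wipf1, which encodes a partner of the actin regulator WASP, holds 4, that of the splicing kinase gene Srpk2 holds 5 and that of the non-coding gene Gm39019 inside Atp10a holds 1. The window of Hivep2, a zinc finger factor gene, goes the other way with 35 CpG dinucleotides, although its peak was called in continuous E2 alone.

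Clustered peaks were lost from the lists about as often as distal peaks outside clusters, some of which have 1 neighbour within 25 kb. Of the 618, 410 (66.3%, 95% Wilson interval 62.5 to 70.0) were in the list of 24 h withdrawal with add-back, 307 (49.7%, 45.7 to 53.6) in that of 40 h, 210 (34.0%, 30.4 to 37.8) in that of 56 h, 233 (37.7%, 34.0 to 41.6) in that of 72 h and 173 (28.0%, 24.6 to 31.7) in that of 120 h. A peak counts as called where a peak of the other list overlaps it by 1 base or more. The 5882 distal peaks outside clusters were called in 66.9%, 48.4%, 34.8%, 36.2% and 27.0% of cases, and all 13165 peaks in 77.8%, 67.0%, 58.8%, 60.3% and 49.4%. Clustered peaks thus stood below the share of all peaks in every list, and beside the other distal peaks in each. In the same order the difference from other distal peaks was -0.59 points (95% interval -4.59 to 3.22), 1.26 (-2.87 to 5.39), -0.79 (-4.61 to 3.22), 1.49 (-2.44 to 5.56) and 1.01 (-2.57 to 4.85). All 5 intervals include 0, and none reaches 6 points in either direction. They cover counting error over peaks only, and peaks of a cluster share a region, so the true uncertainty is larger.

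**Figure D1:**
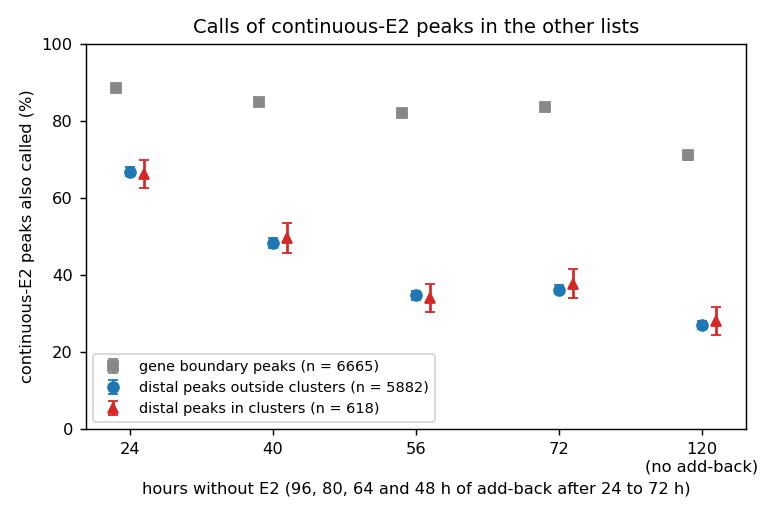
The share of continuous-E2 peaks also called in each other list (vertical axis, percent) is plotted by hours without E2, with 95% Wilson intervals, for 618 clustered distal peaks, 5882 other distal peaks and 6665 gene boundary peaks. The first 2 classes lie on top of each other, at 28.0% and 27.0% at 120 h, and gene boundary peaks lie above them at 71.1%.

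Gene boundary peaks, whose midpoints lie 1000 bases or less from such a start or end, were called in 88.5% after 24 h and 71.1% at 120 h. Clustered peaks stood below the list as a whole, as all distal peaks did. Library depth is unknown here, and the lists differ in length, with 11465, 9940, 8989, 9581 and 7987 peaks in the order of withdrawal. Length, like the share of clustered peaks called, was higher after 72 h than after 56 h. The part of list length in these shares was not tested.

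Clusters were mostly small. Of the 184, 140 had 3 peaks, 28 had 4, 13 had 5, and 1 each had 6, 7 and 8. Spans ran from 7.50 to 105 kb with a median of 31.3 kb, and gaps from 429 to 24964 bases with a median of 12368. Peaks covered a median of 8.15% of the span. A gene boundary peak lay inside the span of 25 clusters. Of the clustered peaks 338 (54.7%) lay inside a protein-coding gene, 215 had the nearest gene boundary within 50 kb and 65 had none that near. The corresponding shares of other distal peaks were 54.7%, 30.3% and 14.9%, beside 34.8% and 10.5% for the latter classes of clustered peaks. At the threshold, the 215 peaks of clusters whose longest gap was over 20 kb were called in 64.2% after 24 h and 27.4% at 120 h, and the 124 peaks that a gap of up to 30 kb would add in 75% and 24.2%.

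Cluster size and position in a cluster made little difference to the calls. At 120 h, peaks were called in 27.6% of cases in clusters of 3, 29.5% in clusters of 4 and 27.9% in clusters of 5 or more. The first and last peak of a cluster were called in 27.2%, and those between them in 29.2%. Peaks inside genes were called in 30.8% and those with a gene boundary within 50 kb in 25.1%, with overlapping intervals (26.1 to 35.9 and 19.8 to 31.3).

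Width, the one property of a peak that the lists hold, went with the calls. Clustered peaks called at 120 h had a median width of 808 bases in continuous E2, those not called 684 bases, and those called in continuous E2 alone 603 bases. In 4 equal classes of the width of all distal peaks, 18.4%, 23.6%, 31.3% and 37.0% of clustered peaks were called at 120 h from narrow to wide, against 16.7%, 23.5%, 30.0% and 38.0% of other distal peaks. Within a class of width, clustered and other distal peaks thus had like shares. The 115 clustered peaks of all 6 lists had median widths of 833, 750, 656, 567, 566 and 581 bases from continuous E2 through 24, 40, 56 and 72 h to 120 h. Of these 115, 107 were narrower at 120 h than in continuous E2 (93.0%, beside 92.3% of other distal peaks). Peak width can follow library depth as well as the extent of open chromatin, and these cannot be told apart here.

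In every other list most clusters had some but not all of their peaks called. Such counts also follow the share of single peaks called, 28.0% at 120 h. Whether peaks of a cluster were kept or lost together beyond that share was not tested. At 120 h, 65 clusters had no peak called, 114 had some and 5 had every peak called. Those 5 lay at Ier5, Midn, Slfn14, Fos and Creb3l1. The counts were 6, 127 and 51 after 24 h, 22, 143 and 19 after 40 h, 45, 130 and 9 after 56 h, and 37, 135 and 12 after 72 h. At least 3 peaks of the same cluster were called in 73, 39, 13 and 22 clusters of the add-back lists and 11 at 120 h. No cluster consisted of peaks called in continuous E2 alone, and 2 consisted of peaks called in all 6 lists.

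**Figure D2:**
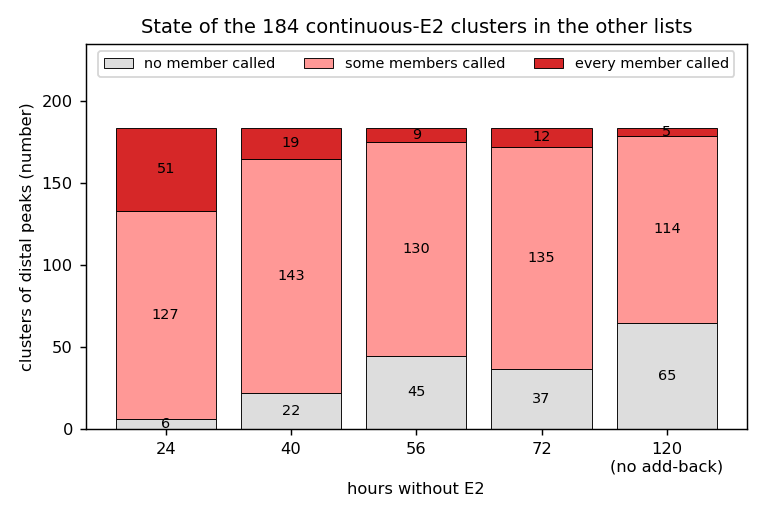
Stacked bars count the 184 clusters (vertical axis) by how many of their peaks were called in each other list (horizontal axis, hours without E2). The middle class, clusters with some peaks called, is the largest in every list, and clusters with every peak called go from 51 after 24 h to 5 at 120 h.

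The share of neighbours in the same state at 120 h was a few points higher at short gaps, but most intervals of the difference included 0. Of 434 adjacent pairs inside clusters, 45 had both peaks called at 120 h, 233 had neither and 156 had 1 of them, so 64.1% were in the same state. Over all distal peaks, pairs with gaps up to 5 kb were in the same state in 67.4% (59.3 to 74.5, 144 pairs), those at 5 to 10 kb in 65.6%, at 10 to 25 kb in 66.6% (62.9 to 70.1, 662 pairs), at 25 to 50 kb in 63.6%, at 50 to 100 kb in 62.6% and at 100 to 1000 kb in 61.1% (59.4 to 62.9, 2998 pairs). Against the farthest class, the difference was 6.22 points (-1.99 to 13.6) for gaps up to 5 kb, 4.46 (-1.51 to 10.0) for 5 to 10 kb and 5.48 (1.41 to 9.38) for 10 to 25 kb, so that 1 of these 3 intervals excludes 0. Adjacent pairs share a peak, which these intervals do not take into account. Such shares also follow the share of single peaks called in each gap class, which was not taken into account either. After 24 h the nearest pairs had the lowest share of the 6 gap classes, 47.2%, against 55.2% to 59.7% in the others.

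**Figure D3:**
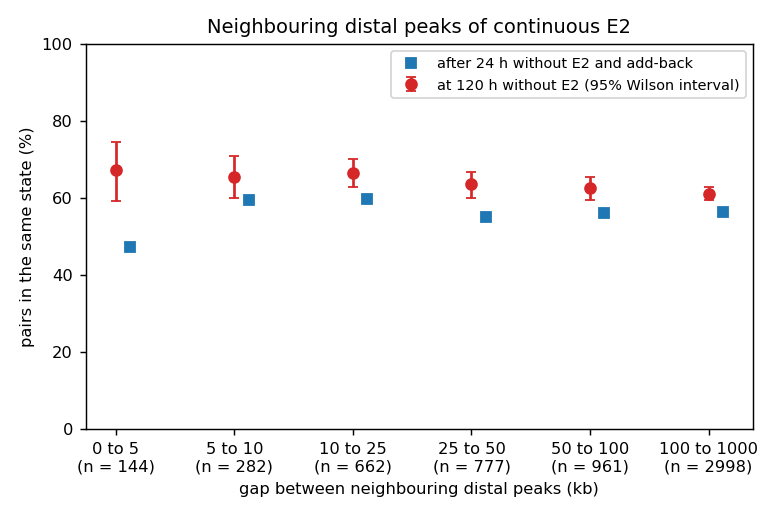
The share of neighbouring distal peaks that are both called or both not called (vertical axis, percent) is plotted by the gap between them (horizontal axis, kb), at 120 h with 95% Wilson intervals and after 24 h as squares. At 120 h the shares lie between 61.1% and 67.4% in all 6 gap classes.

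The largest clusters, at Rbm38 and Fth1, held both kept and lost peaks. The cluster at Rbm38, which encodes an RNA-binding protein, had 8 peaks (chr2:173017996-173084050), some nearest to the predicted gene Gm40011. Of these, 5, 3, 2, 4 and 1 were called after 24, 40, 56 and 72 h and at 120 h, and the same order is used for every cluster below. The widest of them, 2146 bases, was called in continuous E2 and after 72 h and in no other list. At Fth1, the ferritin heavy chain gene, 7 peaks (chr19:9913949-10018700) reached over Incenp, Best1 and Rab3il1, and 5, 3, 3, 3 and 2 were called in the same order of lists. Both peaks kept at 120 h were assigned to Fth1, and 1 of these, inside the gene, held a transcript start window.

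Other large clusters lost every peak. At Chsy1, a chondroitin synthase gene, and its neighbour Lrrk1, the counts were 6, 4, 1, 0 and 0 of 6 peaks (chr7:66179003-66233712). At Cxxc5, which encodes a zinc finger protein that binds unmethylated CpG, 4 of 5 peaks (chr18:35838399-35889984) were called after 24 h, 1 after 40 h and none later. Beside Usp12, a deubiquitinase gene, 2, 1, 1, 0 and 0 of 5 peaks (chr5:146659514-146704412) were called. In this cluster 3 peaks had no gene within 50 kb and 3 were in continuous E2 alone. Atp10a, a lipid flippase gene, had the most clustered peaks of any single gene, 6 in 2 clusters, of which 3, 4, 3, 2 and 0 were called. It was named after its values were seen.

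Further large clusters had at least 1 peak called at 120 h. Inside Tbc1d14, a regulator of autophagy, and beside it 5 peaks (chr5:36530299-36598170) were called in 5, 4, 4, 4 and 3 cases. Inside Itpkb, an inositol trisphosphate kinase gene, 2, 2, 2, 3 and 3 of 5 peaks (chr1:180364918-180423618) were called, with 1 missing after 24, 40 and 56 h and present after 72 h and at 120 h. In 2900026A02Rik, 3, 2, 2, 2 and 2 of 5 peaks (chr5:113151239-113181696) were called, and the kept peaks lay beside each other between lost ones. Among the Tle2, Tle6 and Gna11 genes, which encode 2 Groucho-family proteins and a G protein subunit, 3, 3, 1, 1 and 1 of 5 peaks (chr10:81551606-81606575) were called. In Tspan14, a tetraspanin gene, the counts were 3, 2, 0, 0 and 1 of 5 (chr14:40919408-40959343). The peak kept at 120 h was missing in 3 of the 4 add-back lists. A cluster on the X chromosome (chrX:50590838-50621130) with no protein-coding gene within 50 kb had 3, 3, 1, 2 and 2 of 5 peaks called.

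**Figure D4:**
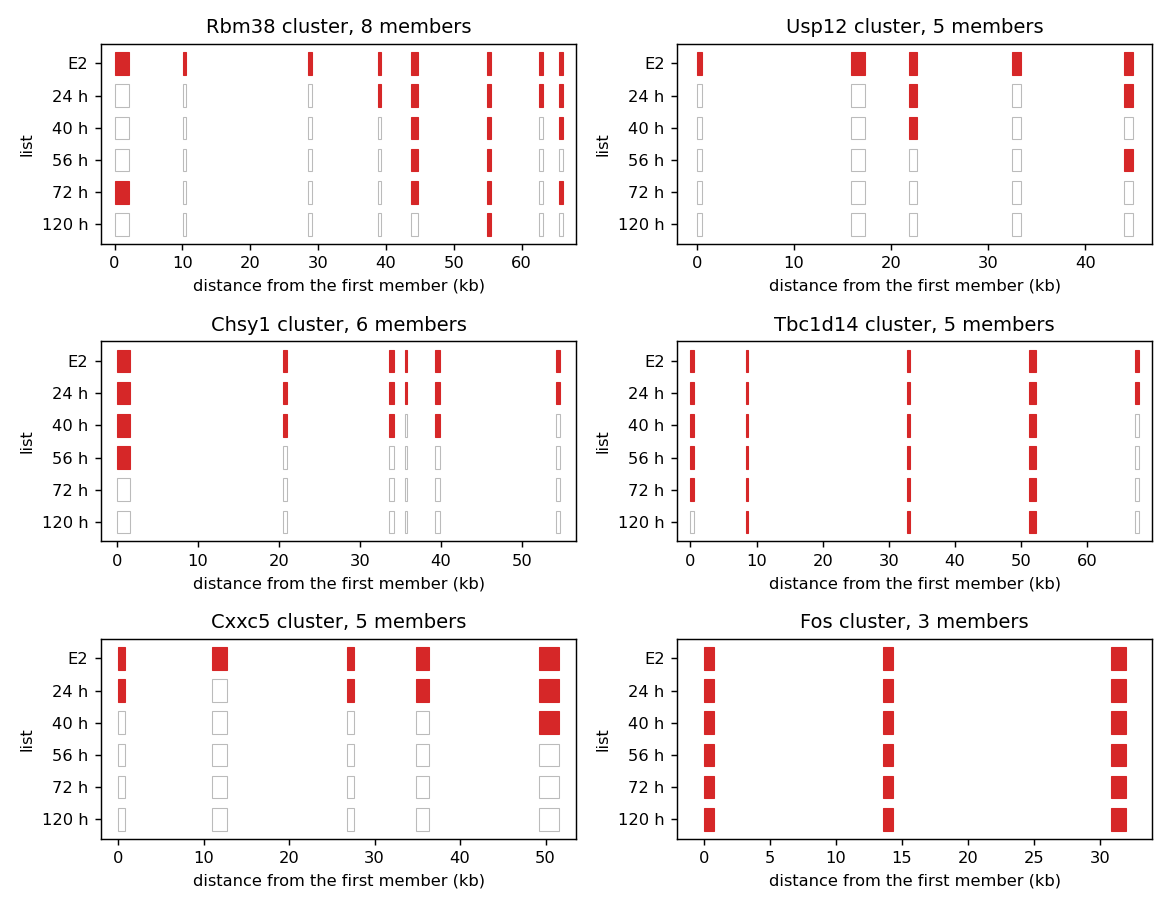
Maps of 6 clusters show each peak of continuous E2 at its distance from the first peak (horizontal axis, kb), filled where the list of that row calls it and empty where it does not. The Chsy1, Cxxc5 and Usp12 clusters are empty at 120 h, the Rbm38 cluster keeps 1 of 8 and Tbc1d14 keeps 3 of 5 peaks, and all 3 peaks of the Fos cluster are filled in every row.

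The 2 clusters in which every peak was called in all 6 lists lay at Fos and at Midn. At Fos, which encodes an AP-1 subunit induced by growth factors, the 3 peaks (chr12:85454974-85486954) were 765, 732 and 1129 bases wide and lay 18534, 4972 and 9116 bases from the gene boundary. The Fos boundary peak was also called at 120 h. Under 50% reciprocal overlap 2 of 3 peaks were called at 120 h at Fos and at Midn, so neither cluster was then complete. The other, at the ubiquitin-related gene Midn with Atp5d and Cirbp (chr10:80141148-80168556), held 2 transcript start windows among its 3 peaks. With a boundary window of 2500 bases the 3 Midn peaks no longer counted as distal. The Midn count at 120 h was then 0, although the calls of these peaks were unchanged. At Fosb, a second AP-1 subunit gene, with Ercc1, 3, 3, 4, 4 and 3 of 5 peaks (chr7:19308215-19345491) were called. Of the 6 clustered peaks at Fos and Fosb themselves, 5, 5, 6, 6 and 5 were called, beside 6 of 14 other distal peaks of 18 AP-1 and immediate early genes at 120 h. With 6 peaks at 2 genes, this is a description of those genes and no statement on the list.

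Progenitor and Hoxa9-associated genes, a list of 35, had 8 clustered peaks at 3 genes, of which 6, 6, 3, 2 and 2 were called. At Meis1, the gene of a Hoxa9 cofactor, the 3 peaks (chr11:18924234-18949549) lay inside the gene: 1 was missing only after 72 h, and the others were in continuous E2 alone. At Flt3, a progenitor cytokine receptor gene, 2 peaks inside the gene and 1 nearest to Urad (chr5:147323469-147366750) were called as 3, 2, 0, 0 and 0. At Cdk6, a cell cycle kinase gene, 3 peaks (chr5:3472564-3502996) were called as 3, 3, 2, 2 and 1. The other distal peaks of the list, 35 in number, were called in 7 cases at 120 h. Cd34, Runx1, Spi1 and Cebpa had no clustered peak. Where 50% reciprocal overlap was asked, the counts of 1 at 120 h in the Meis1, Cdk6, Hivep2, Tle2, Tspan14 and Smim3 clusters became 0.

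The other gene lists had few clustered peaks or none. Late neutrophil genes (30) had 2 clustered peaks, both at Cebpb, the gene of a C/EBP factor of emergency granulopoiesis, and 0 of them was called at 120 h. The remaining peak of that cluster, inside Tmem189, was called at 120 h and missing in every add-back list. Phagocyte genes (25) had 2, both at Fcgr3, an Fc receptor gene, of which 1 was called in all 6 lists and the other not beyond 24 h. At 120 h, 2 of 8 other distal peaks of the late neutrophil list and 8 of 18 of the phagocyte list were called. The 16 primary granule genes, 20 monocyte and macrophage genes, 17 erythroid and megakaryocyte genes, 23 lymphoid genes, 14 mast cell, basophil and eosinophil genes and 19 signalling feedback genes had no clustered peak, and 5, 13, 4, 17, 2 and 18 other distal peaks. Over the whole continuous-E2 list 9.51% of distal peaks were clustered, so having none among so few peaks says little. Cell cycle genes (18) had 3 clustered peaks, all inside Ccnd3, the cyclin D3 gene, with 1, 0, 1, 1 and 0 called. Of the 8 other distal peaks of the list, 6 were called after 24 h and 5 at 120 h. The 1 other distal peak of Ccnd3 was among those called at 120 h. With 3 clustered peaks at 1 gene, this describes Ccnd3 and not the list. Among housekeeping genes, Actb, the beta-actin gene, had 3 clustered peaks with 3, 3, 1, 3 and 3 called, and Ywhaz, a 14-3-3 protein gene, had 4 with 1, 2, 0, 0 and 0 called.

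The 3 widest clustered peaks had 3 different fates. That inside Smim3 (2776 bases, chr18:60499879-60502654) was called in all 6 lists, while both other peaks of its cluster were called in continuous E2 alone. That beside Cxxc5 (2344 bases, chr18:35887641-35889984) was called up to 40 h. That inside Hivep2 (2216 bases, chr10:13964355-13966570), whose start window is printed above, was called in continuous E2 alone, while another peak of its cluster was called in all 6 lists.

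In the order of withdrawal, the commonest pattern was continuous E2 alone, with 146 of the 618 clustered peaks (23.6%, beside 26.0% of other distal peaks), followed by all 6 lists with 115 (18.6%, beside 19.1%). Peaks called up to 24 h numbered 107, up to 40 h 75, up to 56 h 11, and 41 were missing at 120 h alone. Of the 503 that were not in every list, 380 switched once (75.5%), against 79.7% of other distal peaks, a difference of -4.10 points (-8.20 to -0.364). Of the 208 missing after 24 h, 62 (29.8%) were called in a later list, against 21.2% of other distal peaks, a difference of 8.57 points (2.47 to 15.3). Both comparisons were added once values had been seen. The former difference was not recomputed under other settings, where the share of clustered peaks switching once ran from 67.8% to 80.1%. The latter difference was 17.7 points (3.73 to 33.6) with gaps of 10 kb, but 3.19 (-0.957 to 7.64) with gaps of 50 kb, 3.43 (-0.396 to 7.45) with chains of 2 or more and 0.991 with lists shortened to their widest peaks. Its interval also included 0 with chains of 4 or more (8.65 points) and without peaks under 400 bases (5.58 points). Clusters with no peak called after 24 h numbered 6. Those at Uck2, Cytip and Gna12 and 1 at Atp10a had no peak called at 120 h either. That at Pkd1l2 had 2 of 3 peaks called at 120 h and none in any add-back list. That at Zswim4 and Nanos3 had 2 of 4 after 56 and 72 h and 1 at 120 h. These clusters were named after their values were seen.

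Clustered peaks that overlapped a window at an annotated transcript start were called more often than the rest. Any overlap counted, down to 7 bases at Gm33475, so a peak need not hold the start itself. Of the 75, 59 (78.7%) were called after 24 h and 35 (46.7%, 35.8 to 57.8) at 120 h, against 351 (64.6%) and 138 (25.4%, 21.9 to 29.2) of the 543 without a start window. The difference at 120 h was 21.3 points (9.75 to 33.0). It was -1.28 points with lists shortened to their widest peaks and 6.78 points with clusters of 4 or more. Peaks with and without a start window were not compared within classes of width, which also went with the calls. The part of width in this difference was not tested. Distal peaks outside clusters had 55.0% and 21.8% at 120 h, so distal peaks outside clusters showed the split too. Start windows lay in 12.1% of clustered and 15.6% of other distal peaks. This split, like the CpG split below, was added once values had been seen.

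CpG content separated the start windows further. CpG observed/expected is the number of CpG dinucleotides relative to the product of C and G counts, and vertebrate CpG islands are commonly taken to start at 0.6. Its median was 0.82 in the 33 windows of clustered peaks called in all 6 lists, 0.29 in the 9 called in continuous E2 alone and 0.38 in all 32817 RefSeq windows. Of 41 windows at 0.6 or more, 28 (68.3%, 53.0 to 80.4) belonged to peaks called at 120 h, against 7 of 34 below it (20.6%, 10.3 to 36.8). Other distal peaks had 66.1% and 32.1%. The 6 windows of all-list peaks below 0.6 lay at Aim2, Gm36223, Rhof, Ercc1, Gm45805 and Ccdc12, and Hivep2 was the 1 window above it in continuous E2 alone.

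**Figure D5:**
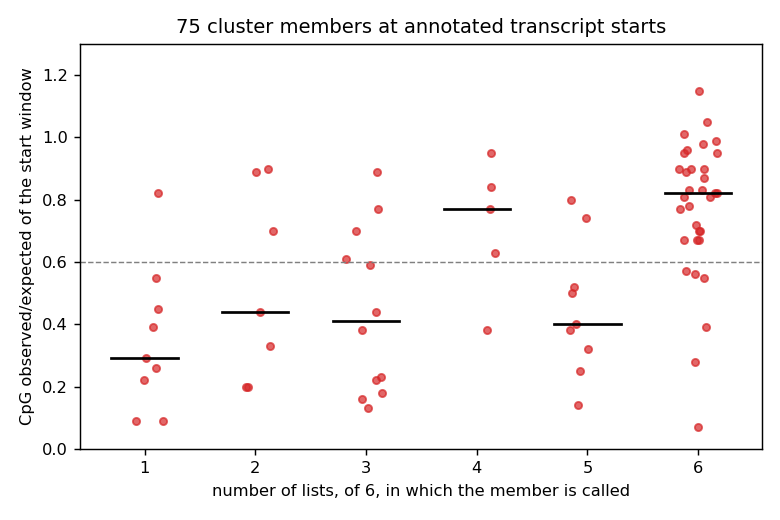
Each of 75 clustered peaks overlaps a window at an annotated transcript start. The CpG observed/expected ratio of that window (vertical axis) is plotted by the number of lists, of 6, calling the peak (horizontal axis). Medians are bars, a dashed line marks 0.6, and points have a small random horizontal offset. The median is 0.29 in 1 list and 0.82 in 6 lists, and single points depart from it in both groups.

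Short motifs were searched in these 75 windows on both strands. The GC box GGGCGG, bound by SP and KLF factors, was in 71.4% of windows called at 120 h and 42.5% of those not called, against 35.6% of all RefSeq windows of this length. The other motifs were in few windows: RUNX TGTGGT in 8 of 75 (10.7%, all windows 16.8%), MEIS TGACAG in 12 (16.0%, 19.2%), C/EBP TTGCNNAA in 9 (all windows 10.8%), AP-1 TGANTCA in 5 (6.67%, 7.81%), PU.1 GAGGAAGT in 2 (2.67%, 3.20%) and CRE TGACGTCA in 2 (2.67%, 1.79%). The GC box contains CpG, so its share and the CpG ratio are not separate measures. The other 543 clustered peaks were not searched, because no genome sequence was used here.

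Gene boundary peaks beside clusters were called about as often as other boundary peaks, but less often where the cluster had no peak left at 120 h. Of 90 within 25 kb of a cluster, 63 (70.0%, 59.9 to 78.5) were called at 120 h, against 71.2% of the other 6575. Of the 26 beside clusters with no peak called at 120 h, 13 (interval 32.1% to 67.9%) were called, and of the 64 beside clusters with a called peak 50 (78.1%, 66.6 to 86.5). The difference was 28.1 points (6.78 to 47.9). The split was added once values had been seen, and both the cluster state and the boundary calls come from the 120 h list.

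Some new peaks appeared inside the clusters. Within the cluster spans, 5.95 Mb in all, lay 6, 6, 6, 8 and 9 distal peaks of the lists after 24, 40, 56 and 72 h and at 120 h that overlapped no continuous-E2 peak. They made up 1.45%, 1.92%, 2.80%, 3.36% and 5.03% of the distal peaks of those lists inside the spans. Over the whole lists, 12.8%, 13.9%, 20.9%, 27.1% and 35% of distal peaks were new. The spans were chosen for their continuous-E2 peaks, which by itself lowers the share that is new there, so these shares do not show that new peaks avoided the clusters. Of the 955 new distal peaks of the 120 h list, 0.942% lay in the spans. At 120 h they lay in 8 clusters. The cluster at Fth1 gained 2, and that at Creb3l1 and Dgkz and that of the adhesion receptor gene Cd44 gained 1 each.

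The same chain rule gave fewer clusters in every other list, namely 91, 52, 33 and 41 in the add-back lists of 24, 40, 56 and 72 h and 33 at 120 h. Clustered peaks were 9.51% of distal peaks in continuous E2, then 5.84%, 4.47%, 3.73%, 4.16% and 3.82%. Fewer distal peaks leave longer gaps, so these shares also follow list length, from 6500 distal peaks in continuous E2 to 2725 at 120 h. Of the 184 clusters, 68, 35, 13, 21 and 14 overlapped a cluster of the other list.

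Clustered peaks were unevenly spread over chromosomes. Chromosome 5 held 107 (17.3% of all) in 31 clusters, and 18.3% of its distal peaks were clustered, against 9.51% in the whole list. It also had the most distal peaks per Mb, 3.85, where the other autosomes had 2.02 to 3.14. Chromosome 2 followed with 67. At 120 h, 30.8% of the clustered peaks of chromosome 5 and 32.8% of those of chromosome 2 were called. The 42 on chromosomes 18 and 19, where the deposited lists repeat rows, were called in 69.0% after 24 h and 23.8% at 120 h.

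The spans also held microRNA genes. The hairpin of Mir8096 lay in a clustered peak (chr1:85751377-85752523) missing at 120 h alone, and that of Mir6367 in one (chr16:91527097-91527823) called in continuous E2 and after 24 h. The Zswim4 span held Mir23a, Mir27a and Mir24-2, which are made from a shared precursor transcript, but none of its 4 clustered peaks lay on a hairpin.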

How the data were processed

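The authors' deposited files are peak lists, 1 for the 2 libraries of each of 6 groups, giving only the position of each peak in bases. How libraries were pooled is not stated. The submitters' processing notes name BWA, MACS2 2.0 and STAR 2.5 without roles, and the build mm9. The positions were read as GRCm38: the share of midpoints within 1000 bases of protein-coding gene boundaries was 50.6% to 68.0%, against 4.66% to 5.01% after a shift of 500000 bases. Starts are printed 1-based, taking the lists as BED.

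Exact duplicate rows, all on chromosomes 18 and 19, and intervals over 10 kb were dropped, and overlapping rows merged. Depth is unknown, so intervals (95% Wilson, and the matching interval of a difference) cover counting error over peaks only, and no p-value was computed. Peaks were assigned to the protein-coding gene holding the midpoint, else the nearest boundary within 50 kb.

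The peaks and gene lists were chosen with earlier results of these data known. Named were the 12 clusters with most peaks, up to 4 genes per list, up to 5 clusters each with every peak in all lists or in continuous E2 alone, the 3 widest peaks, and Meis1, Cd34, Flt3, Runx1, Cdk6, Spi1 and Cebpa, except for items that are not reported here. Sequences are RefSeq windows of GRCm38.p6, 250 bases before to 50 after a start, taking for each peak the one with most overlap. Alternatives changed gap, cluster size, boundary window, overlap, list length, width, longest interval and chromosomes. Cleaning, chaining, overlap and assignment were tested on simulated peaks with known answers. Python 3.11.15, numpy 2.4.6, pandas 2.3.3, scipy 1.17.1 and matplotlib 3.10.9 were used.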

Additional observations from a re-analysis of the deposited data

How the results depend on the processing

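No paired analysis was possible because each group has a single peak list covering its 2 libraries. Leaving out a library could not be done either. Over 11 alternatives, 10 comparison values gave 110 results, of which 87 stayed within the main interval (counts within 1.5 times), 22 moved and 1 reversed. The difference in absent share between clustered and other distal peaks, -1.01 points, stayed within its interval in every alternative run. The number of clustered peaks, 618, was 104 with gaps of 10 kb, 1469 with 50 kb, 1926 with chains of 2 or more, 198 with 4 or more and 64 with lists shortened to their widest peaks. The share absent at 120 h, 72.0%, was 78.6% under 50% reciprocal overlap, 65.6% in shortened lists and 76.6% without peaks under 400 bases. In that order the share called after 72 h, 37.7%, was 29.4%, 48.4% and 31.0%. Clusters with no peak called at 120 h, 35.3%, were 54.4% with chains of 2, 22.7% with chains of 4, 50.5% under reciprocal overlap and 46.0% without narrow peaks. The share switching once, 75.5%, was 67.8% with gaps of 10 kb, 80.1% under reciprocal overlap and 79.4% without narrow peaks. The excess of clustered over other distal peaks missing after 24 h and called later, 8.57 points, was 17.7 with gaps of 10 kb and 0.991 in shortened lists. It was 3.19 with gaps of 50 kb, 3.43 with chains of 2, 8.65 with chains of 4 and 5.58 without narrow peaks, and in these 4 and in shortened lists the interval included 0. The difference at 120 h between clustered peaks at transcript starts and the rest, 21.3 points, was 6.78 with chains of 4 and turned to -1.28 in shortened lists, which keep 64 clustered peaks. The CpG difference, 47.7 points, was 70.8 with gaps of 10 kb. The cause of these changes was not tested. Of 179 counts for single clusters, 155 stayed within 1.5 times. Under reciprocal overlap the 120 h counts of the Meis1, Cdk6, Hivep2, Tle2, Tspan14 and Smim3 clusters, each 1, became 0, and those of Fos and Midn went from 3 to 2. With a boundary window of 2500 bases Midn went from 3 to 0, Fth1 from 2 to 0 and Fosb from 3 to 1. This window changes which peaks count as distal and not their calls, so the peaks left the count while still called at 120 h. In shortened lists Tbc1d14, Actb and Fosb went from 3 to 1, Fth1 and 2900026A02Rik from 2 to 1 and Rbm38 from 1 to 0.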

Other observations

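At 120 h the same chain rule found 33 clusters, of which 19 overlapped no cluster of continuous E2. These 19 held 60 distal peaks and are named here after their values were seen. They lay at Tlr2, a Toll-like receptor gene, Csf2ra, the GM-CSF receptor alpha chain, Clec4n and Clec4d, C-type lectins, Cd33, Cd300a, Cd300lb and Cd300lf, surface receptors, Ptpn6, the phosphatase SHP-1, Adam8, a metalloprotease, Mcl1, a survival factor, and Ctsd, a lysosomal protease. The others lay at Nfic, Iqgap1, Grk2, Dnajc5, Msl1, Lfng and Tnfrsf8, and at 2 places with no assigned gene. Peaks of these 19 clusters were also assigned to Rab37, Tmem131l, Adamtsl4, Atn1, Spef1l, Nr1d1, Ttyh3 and Tnfrsf1b.

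Of the 60 peaks, 28 (46.7%) were called in continuous E2, and 30, 27, 30 and 38 in the add-back lists of 24, 40, 56 and 72 h. Over all 2725 distal peaks of the 120 h list, the share called in continuous E2 was 65.0%. The clusters were taken because they overlap no continuous-E2 cluster, so both shares are descriptions. At Csf2ra all 3 peaks were called in continuous E2, and Nfic was the 1 cluster where none was.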
